A study of Mus musculus with 90 samples.

Results

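The liver samples described here are those of mice under caloric restriction around the clock, and the genes described are those whose 24 h rhythm differed between mice with and without the glucocorticoid receptor (GR) in hepatocytes. The samples were chosen by table: all 36 samples of the deposited table for the caloric restriction time course, out of 90 samples in the series. Each is bulk polyA RNA from the liver of 1 mouse, with 3 mice at each of 6 times in each of 2 genotypes, so 18 samples per genotype. Times are zeitgeber times (ZT), in which ZT0 is 6 a.m. and ZT12 is lights off.

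All mice were male C57BL/6J fed chow. WT mice here are GRfl/fl: they carry the floxed GR allele but no Cre. GRLKO mice are GRfl/fl x Alb-Cre, so the gene is deleted where the albumin promoter drives Cre, which is in hepatocytes, and the other liver cells keep it. From 12 weeks of age, the intake of the restricted mice was lowered stepwise over 4 weeks to 40% fewer calories and held there for some further weeks, with food given at ZT12. The control diet is used below for comparison. It holds other mice of the same strain and genotypes, 22 WT and 20 GRLKO with 3 or 4 at each time, which ate freely and then only at night in the last week.

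GR, encoded by Nr3c1, is the nuclear receptor for corticosterone in mice. The hormone is released in a daily wave that peaks near the start of the active phase, and fasting raises it. In liver, GR binds DNA beside genes of glucose, amino acid and fat metabolism and of the circadian clock, and raises or lowers their transcription. A liver transcript can thus follow the local clock, the feeding schedule, or hormones that arrive with the blood.

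Total estimated counts per sample ran from 14235473 to 20788575, with a median of 17386700.5. Levels are given in CPM, counts scaled to a common library size, which depend on transcript length and are therefore compared within a gene, not between genes. The table held 27654 genes, of which 27244 could be given a symbol, and 13041 had counts high enough to be tested. For each gene a 24 h cosine was fitted in each genotype. Its amplitude is the distance from the daily mean to the peak on the log2 scale, and its phase is the ZT of the fitted peak.

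The genotype labels were checked on Nr3c1 (chr18:39410545-39519421, GRCm38, minus strand), which was not used to choose the samples. Its level in WT ran from 70.1 to 112.7 CPM with a median of 93.9 CPM, and in GRLKO from 21.4 to 32.1 CPM with a median of 24.9 CPM. The 18 GRLKO samples thus all lay below the 18 WT samples, and the receptor's transcript was lowered, not absent, at every time. Its daily mean fell by 1.84 ± 0.04 (SE) on the log2 scale, and its small rhythm had amplitudes of 0.17 ± 0.04 in WT and 0.18 ± 0.04 in GRLKO (adjusted p of the interaction 0.925). Among the markers of hepatocytes, 7 of 7 were tested and Alb was the most abundant. Their summed level ran from 108474 to 165496 CPM in WT, with a median of 129649 CPM, and from 98599 to 133289 CPM in GRLKO, with a median of 106773 CPM. Of these 7 markers, 5 were lower in daily mean in GRLKO (11.7% of all genes tested were), with a median difference of -0.22 on the log2 scale. In bulk tissue, fewer cells of a type and less RNA per cell cannot be told apart.

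Markers of other cells were few but not even across samples. Of 8 exocrine pancreas genes, 0 passed the filter. Their sum was 1110.6 CPM in WT ZT12 replicate 3, with Amy2a5 the most abundant, while the median of the WT samples was 0.12 CPM and the highest GRLKO sample had 0.651 CPM. The 6 erythrocyte genes, led by Hbb-bs, summed to 3843.8 CPM in GRLKO ZT0 replicate 2 and 1237.3 CPM in WT ZT0 replicate 2, beside medians of 461 CPM in GRLKO and 394 CPM in WT. In daily mean 1 erythrocyte gene was higher in GRLKO.

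The 6 endothelial markers, led by Clec4g, summed to between 149 and 213 CPM in WT, with a median of 172 CPM, and to between 168 and 237 CPM in GRLKO, with a median of 205 CPM. In daily mean 4 of the 6 were higher in GRLKO (11.1% of all genes tested were), with a list median of 0.22 on the log2 scale, and 1 of the 6, Stab2, had a rhythm that differed (0.997% of all). The stellate list of 6, led by Dcn, had medians of 235 CPM in WT and 230 CPM in GRLKO, with 1 gene higher in daily mean. The Kupffer and myeloid list of 8, led by Clec4f, had medians of 164 and 181 CPM and 0 genes that differed in daily mean or rhythm. For cholangiocytes, led by Spp1, 4 of 5 genes were tested and the medians were 44.1 CPM in WT and 56.1 CPM in GRLKO, with 0 genes that differed. Of the lymphocyte genes, led by Cd79a, 4 of 6 were tested and 1 was higher in daily mean in GRLKO. Lymphocyte sums reached 6.67 CPM at most. Of the neutrophil genes, led by S100a9, 2 of 5 were tested, and their sums reached 3.99 CPM at most. Of the adipocyte genes 2 of 6 were tested, Plin1 and Lep were at 0 in all 36 samples, and the sum, mostly Fabp4, had medians of 7.12 CPM in WT and 10.7 CPM in GRLKO. In daily mean 1 adipocyte gene was higher in GRLKO, with a list median of 1.42 on the log2 scale. The adipocyte sums of GRLKO lay above those of WT without overlap at ZT4, ZT8, ZT16 and ZT20. The part of these cells in the rhythm differences was not tested, apart from the counts without the 3 samples with high pancreas or erythrocyte sums given next.

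The question asked was which daily rhythms of the restricted liver differ when hepatocytes lack GR. Most rhythms of this liver were found in both genotypes: 7128 genes (54.7%) were rhythmic in WT, 6668 (51.1%) in GRLKO and 5131 (39.3%) in both, at an adjusted p under 0.05. The rhythm itself differed between the genotypes, by the test of the interaction of genotype with both terms of the cosine, for 130 of 13041 genes (0.997%). Of these 130, 78 (0.598% of the genes tested) had a lower fitted amplitude in GRLKO and 52 (0.399%) a higher one. An unadjusted p under 0.05 was reached by 1607 genes (12.3%).

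This number of genes moved with most choices of samples. Without WT ZT12 replicate 3, the sample with pancreas transcripts, 57 genes were called, 54 of them among the 130. Without that sample and both samples with high erythrocyte markers, a choice made after the data were seen, 47 were called, 44 of them among the 130. With all 6 samples of ZT12 left out, 3 genes were called. The 36 fits that left out 1 sample each called between 57 and 165 genes, with a median of 86, and 43 of the 130 were called in every one of them. The count fell by over 1.5 times without any 1 of 18 samples, of both genotypes and all 6 times, to 60 without GRLKO ZT4 replicate 1 and 61 without WT ZT12 replicate 2.

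The median amplitude of the 130 genes was 0.48 in WT and 0.40 in GRLKO, beside 0.28 and 0.27 over all genes tested. The call itself uses the terms that give the amplitude, so no conclusion is drawn from the larger values. A lower amplitude in GRLKO was seen for 60.0% of the 130 and for 52.9% of all genes tested. That share was 45.5% when the ZT0 samples were left out. The amplitude differed by more than 2 SE for 65 of the 130 genes, down in GRLKO for 41 and up for 24, while among all genes tested 529 were down and 431 up by this measure. Rhythms passed the threshold in both genotypes for 93 of the 130, in WT alone for 23 and in GRLKO alone for 14.

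**Figure D1:**
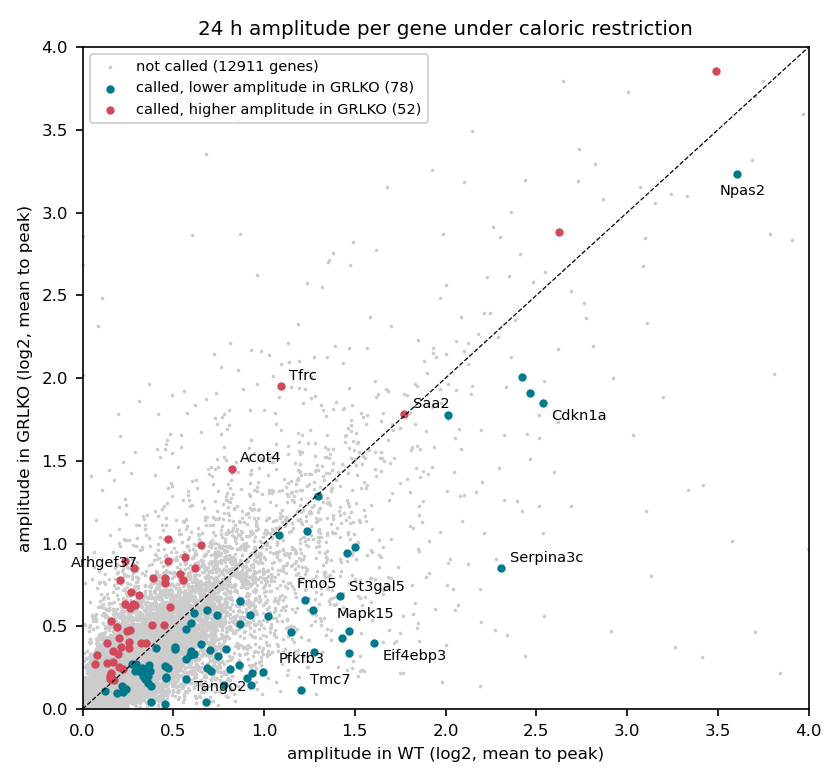
Fitted amplitude of every gene tested in GRLKO (vertical axis, log2 mean to peak) against WT (horizontal axis, same unit), with the 130 genes whose rhythm differed in color. Both axes end at 4, which leaves out 60 genes, 3 of them among the 130. Genes below the diagonal, 78 of the 130, had the smaller amplitude in GRLKO, among them Tango2 at 0.68 in WT and 0.04 in GRLKO.

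Where both genotypes were rhythmic, the peak came later in GRLKO more often than earlier. Of the 93 genes, 64 peaked later and 29 earlier, with a median shift of 2.18 h, while over all 5131 genes rhythmic in both genotypes 2924 were later and 2207 earlier. A shift beyond 2 SE was found for 80 of the 93, of which 54 were later and 26 earlier. Among all genes rhythmic in both, 541 were later and 280 earlier by this measure, so the lean toward later peaks was not particular to the called genes. The call itself uses the phase, so the size of these shifts is not compared with that of all genes.

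For most of the called genes the genotypes stood farthest from their average difference at lights off. For 81 of the 130 genes the time at which the genotypes stood farthest from their average difference was ZT12, which was so for 33.2% of all genes tested. In the fitted curves, GRLKO stood highest relative to WT near ZT0 for 43 genes (33.1%, beside 17.5% of all). GRLKO did so near ZT12 for 33 genes (25.4%, beside 17.3% of all). The call itself uses the same samples and fitted terms as these counts, so no conclusion is drawn from the larger shares.

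Cell markers also split by genotype at ZT12. The 7 hepatocyte markers summed to 160907, 161155 and 165496 CPM in WT and 120862, 129202 and 110901 CPM in GRLKO, the 3 highest sums of the 36 samples being those of WT at this time. GRLKO lay below WT without overlap at ZT0, ZT8 and ZT16 too. The 8 Kupffer and myeloid markers summed to 53.6, 87.8 and 63.0 CPM in WT and 148.8, 117.8 and 179.5 CPM in GRLKO, and at the other 5 times the genotypes overlapped. The 5 cholangiocyte markers, at 26.4, 31.1 and 28.9 CPM in WT and 31.4, 32.4 and 31.7 CPM in GRLKO, also split at ZT12 alone, by little. The 6 endothelial markers, at 163.5, 149.3 and 178.6 CPM in WT and 212.1, 198.1 and 220.4 CPM in GRLKO, split at ZT4 and ZT8 as well. The part of these cells in the ZT12 values of the genes below was not tested.

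**Figure D2:**
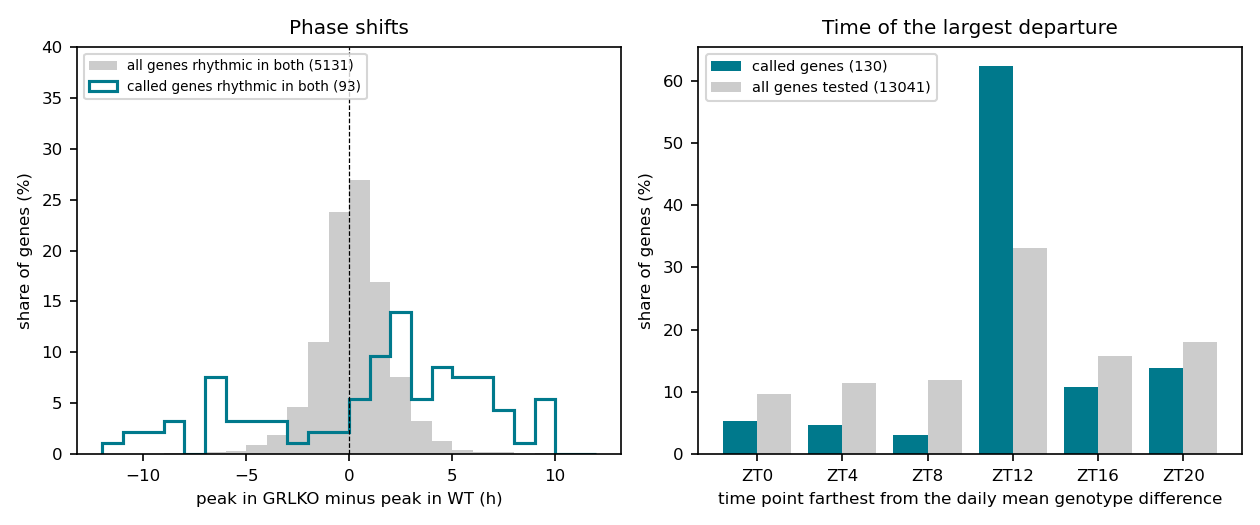
Left, peak time in GRLKO minus WT (horizontal axis, h) against share of genes (vertical axis, %), for the 93 called genes and all 5131 genes rhythmic in both genotypes. Right, the time point (horizontal axis, ZT) at which the genotype difference lay farthest from its daily mean, against share of genes (vertical axis, %), for the 130 genes and all 13041 tested. ZT12 held 81 of the 130 genes, and of the 93 genes rhythmic in both genotypes 64 peaked later in GRLKO.

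Many of these genes also differed in daily mean, a value the interaction test does not use but which comes from the same samples and fit. Over all genes tested, the daily mean differed for 2981 (22.9%), lower in GRLKO for 1531 (11.7%) and higher for 1450 (11.1%). Among the 130 it differed for 89 (68.5%), lower for 57 and higher for 32. A change at a single time moves both the daily mean and the rhythm terms, so the larger share is not separate evidence. The median level of the 130 was 27.6 CPM, beside 12.5 CPM over all genes tested. By annotation 122 of the 130 were protein coding and 6 were pseudogenes, whose counts can hold reads of the parent gene. They were spread over the genome: each of the 19 autosomes and the X held at least 1, from 0.35% of the tested genes of chromosome 4 to 2.51% of those of chromosome 14.

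The clearest loss of a rhythm was in Tango2 (chr16:18300825-18348103, GRCm38, minus strand), named for a role in transport and Golgi organization. In WT at ZT12 its 3 samples had 69.1, 69.6 and 84.6 CPM, and in GRLKO 17.7, 16.6 and 16.9 CPM. Over the day WT ran from 25.2 to 84.6 CPM, with a median of 35.9 CPM, and GRLKO from 15.7 to 21.6 CPM, with a median of 19.5 CPM. WT rose toward ZT12 and ZT16, GRLKO stayed flat, and the genotypes did not overlap at any time. The amplitude fell from 0.68 ± 0.06 to 0.04 ± 0.06, which is a trough-to-peak ratio of 2.57 in WT and 1.06 in GRLKO (adjusted p = 0.000198). Among the 47 named genes Tango2 alone was called in each of the 6 fits that left out 1 time point. Under the control diet its amplitude was 0.36 ± 0.05 in WT and 0.07 ± 0.06 in GRLKO.

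Eif4ebp3, Pfkfb3 and Pfkfb2 had smaller waves in GRLKO. Eif4ebp3 encodes a repressor of cap-dependent translation that binds eIF4E. Its WT samples at ZT12 had 118, 162 and 137 CPM, and the GRLKO samples 5.18, 5.69 and 4.21 CPM. The highest GRLKO sample of the day, 5.69 CPM, lay below the lowest WT sample, 10.5 CPM. Its amplitude fell from 1.61 ± 0.12 to 0.40 ± 0.15 and its daily mean fell by 3.45 ± 0.14 (adjusted p of the interaction 0.00406). Pfkfb3 and Pfkfb2 encode the bifunctional enzymes that set the level of fructose 2,6-bisphosphate, an activator of glycolysis. Pfkfb3 had 25.6, 44.3 and 29 CPM in WT at ZT12 and 4.49, 1.63 and 4.15 CPM in GRLKO. At ZT0 the genotypes overlapped, with 2.72, 5.71 and 2.99 CPM in WT and 3.25, 4.6 and 3.86 CPM in GRLKO. GRLKO stayed at or below 8.98 CPM all day, with its highest sample at ZT8. The amplitude fell from 1.43 ± 0.16 to 0.43 ± 0.17 (adjusted p = 0.0172). Pfkfb2 had 39.7, 27.9 and 30.7 CPM in WT at ZT12 and 11.3, 7.1 and 11.4 CPM in GRLKO, and its amplitude fell from 0.81 ± 0.09 to 0.24 ± 0.09 (adjusted p = 0.0273). Without the samples with pancreas and erythrocyte markers, Pfkfb3 was not called and Pfkfb2 was.

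Il1r1, St3gal5 and Tmc7 had smaller waves in GRLKO as well. Il1r1, the receptor of interleukin 1, had 191, 162 and 185 CPM in WT at ZT12 and 22.3, 13.1 and 18 CPM in GRLKO, and its amplitude fell from 1.28 ± 0.17 to 0.35 ± 0.18 (adjusted p = 0.0202). St3gal5, the sialyltransferase that makes ganglioside GM3, had 368, 483 and 518 CPM in WT and 76.4, 91.5 and 70.7 CPM in GRLKO at that time. It kept a smaller rhythm in GRLKO, 0.69 ± 0.12 after 1.42 ± 0.12 in WT (adjusted p = 0.0445). In both genes GRLKO lay below WT at all 6 times with no overlap. Tmc7, a member of the transmembrane channel-like family, had 23, 33.3 and 28.2 CPM in WT at ZT12 and 2.59, 1.75 and 2.99 CPM in GRLKO, and the amplitude fell from 1.20 ± 0.14 to 0.11 ± 0.15 (adjusted p = 0.00406).

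Serpina3c, a serine protease inhibitor of the liver, had the largest fall of amplitude among the called genes at 5 CPM or more, from 2.31 ± 0.36 to 0.85 ± 0.37 (adjusted p = 0.021). Its WT samples at ZT12 had 83.6, 20.4 and 107 CPM and at ZT16 8.69, 81.8 and 127 CPM, and the GRLKO samples at ZT12 had 11.2, 2.31 and 5.38 CPM. Single mice of 1 time thus differed widely, and GRLKO ZT0 replicates 2 and 3, at 20.7 and 22 CPM, stood above the WT samples of that time. Shld2, of the shieldin complex that guides repair of DNA breaks, had 100, 67.8 and 72.1 CPM in WT at ZT12 and 18.2, 12.5 and 17.8 CPM in GRLKO, and fell in amplitude from 0.93 ± 0.12 to 0.15 ± 0.12. Gin1 had 35.4, 25.4 and 25.3 CPM in WT at ZT12 against 7.08, 6.93 and 9.16 CPM in GRLKO, and at the other times both genotypes reached at most 11 CPM. Arhgef26 fell from 0.93 ± 0.11 to 0.22 ± 0.11, with 72.9, 76.5 and 79.5 CPM in WT at ZT12 and 22.3, 19.6 and 24.6 CPM in GRLKO.

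Mapk15, an atypical MAP kinase, fell in amplitude through its trough, which was shallower in GRLKO. At ZT12 WT had 1.69, 1.67 and 1.85 CPM and GRLKO 6.39, 9.36 and 11.2 CPM, while at ZT20 WT had 17.7, 17.1 and 16.6 CPM and GRLKO 14.5, 13.8 and 10.9 CPM. Both genotypes peaked near ZT24, at 23.6 h and 23.8 h, and the amplitude fell from 1.47 ± 0.16 to 0.47 ± 0.15 (adjusted p = 0.045).

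Other rhythms grew. Tfrc encodes the transferrin receptor, which takes up iron. At ZT16 its WT samples had 67.4, 93.6 and 116 CPM and its GRLKO samples 186, 170 and 222 CPM, while at ZT4 WT had 34.1, 27.5 and 21.8 CPM and GRLKO 11.5, 15.4 and 17.5 CPM. GRLKO was thus higher at the peak and lower by day, with no overlap at either time, and the daily mean differed by 0.02 ± 0.14. The amplitude rose from 1.09 ± 0.14 to 1.95 ± 0.14, a trough-to-peak ratio of 4.54 in WT and 14.96 in GRLKO, and the peak came 1.88 ± 0.55 h later (adjusted p = 0.00723).

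Acot4, Acox2 and Mettl7b also had larger waves in GRLKO. Acot4, a peroxisomal thioesterase that frees succinate from succinyl-CoA, had 250, 233 and 272 CPM in WT at ZT12 and 684, 855 and 788 CPM in GRLKO. At ZT0 the WT samples had 76.9, 89.3 and 78.7 CPM and the GRLKO samples 96.7, 96.5 and 94.2 CPM. GRLKO stood above WT without overlap at 5 of 6 times, least at ZT0 and most at ZT12, with peaks at 12.2 h and 12.4 h. The amplitude rose from 0.82 ± 0.08 to 1.45 ± 0.08 (adjusted p = 0.0129). Acox2, the peroxisomal oxidase for the side chain of bile acid precursors, rose in amplitude from 0.47 ± 0.09 to 0.89 ± 0.09 through a deeper trough (adjusted p = 0.049). At ZT12 it had 154, 139 and 142 CPM in WT and 46.5, 54.7 and 49.5 CPM in GRLKO, while at ZT4 the genotypes overlapped. Mettl7b, a methyltransferase found on lipid droplets, rose from 0.29 ± 0.04 to 0.63 ± 0.04 (adjusted p = 0.00406). Its GRLKO samples at ZT16 had 831, 922 and 972 CPM and its WT samples 625, 578 and 642 CPM.

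More genes had larger rhythms in GRLKO. Zfpm1, or FOG1, a cofactor of GATA factors, had 38.9, 46.2 and 54.5 CPM in GRLKO at ZT12 and 23.5, 16.5 and 16.7 CPM in WT, and its peak moved from 2.4 h to 9.1 h as its amplitude rose from 0.31 ± 0.10 to 0.69 ± 0.10 (adjusted p = 0.00827). Egln3, a prolyl hydroxylase that acts on hypoxia-inducible factors, had 37.1, 38 and 53.9 CPM in GRLKO at ZT12 and 10.5, 12.7 and 11.4 CPM in WT. Its rhythm passed the threshold in GRLKO alone, with fitted amplitudes of 0.23 ± 0.12 in WT and 0.63 ± 0.12 in GRLKO. Zfp395 rose from 0.15 ± 0.07 to 0.53 ± 0.07, with 98.4, 137 and 105 CPM in GRLKO at ZT12 and 41.4, 43.3 and 50.8 CPM in WT, where all 18 samples lay between 34.4 and 54.5 CPM. Tbc1d16, a regulator of Rab GTPases, rose from 0.39 ± 0.07 to 0.79 ± 0.07, and Eva1a, linked to autophagy, from 0.27 ± 0.07 to 0.70 ± 0.07. In Ablim3, an actin-binding protein, and Arhgef37 the rise came from a low at ZT8 and ZT12. Arhgef37 had 26.9, 40.2 and 42.1 CPM in WT at ZT12 and 9.5, 13 and 8.06 CPM in GRLKO, and Ablim3 32, 52.7 and 32.3 CPM in WT and 10.8, 9.08 and 12 CPM in GRLKO.

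**Figure D3:**
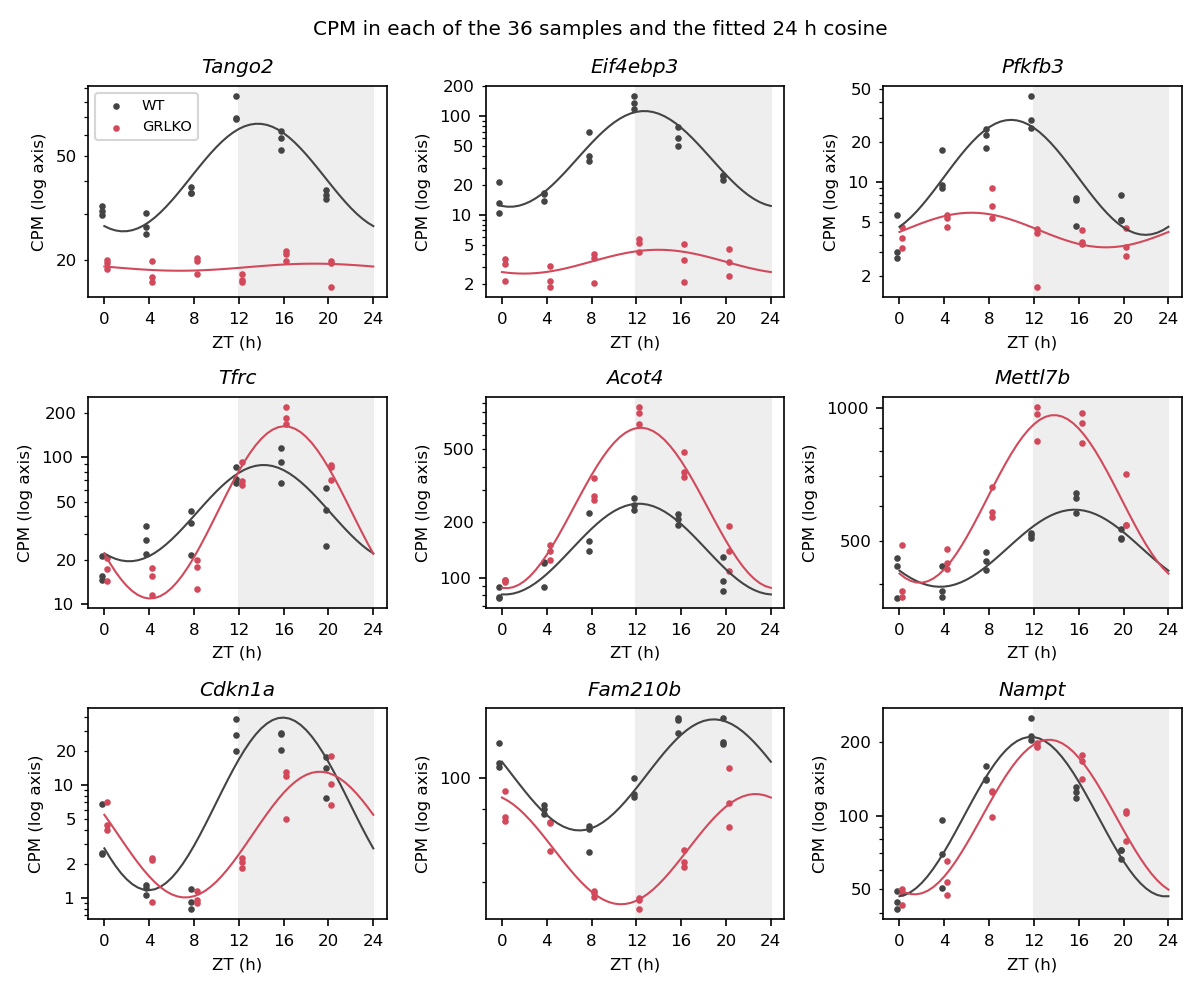
Level of selected genes in each of the 36 samples (vertical axis, CPM on a log scale) against ZT in hours (horizontal axis), with points for samples and lines for the fitted curves of WT and GRLKO. In Tango2 the 3 WT samples at ZT12 sit between 69.1 and 84.6 CPM and the 3 GRLKO samples between 16.6 and 17.7 CPM.

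In other genes the wave was kept and the peak moved. Cdkn1a, the cell cycle inhibitor p21, had 38.4, 20 and 27.6 CPM in WT at ZT12 and 1.84, 2.09 and 2.26 CPM in GRLKO, while at ZT20 the genotypes overlapped at 17.5, 7.7 and 14.1 CPM in WT and 18, 6.66 and 10.2 CPM in GRLKO. The onset was thus later in GRLKO: the peak moved from 15.9 h to 19.2 h, by 3.29 ± 0.61 h, and the amplitude was 2.53 ± 0.24 in WT and 1.85 ± 0.25 in GRLKO (adjusted p = 0.00723). Tsc22d3, or GILZ, a classical GR target, behaved alike in its values. It had 212, 246 and 261 CPM in WT at ZT12 and 59, 74.4 and 66 CPM in GRLKO, but 173, 170 and 149 CPM in WT and 126, 127 and 149 CPM in GRLKO at ZT16. Its wave was kept in GRLKO, with amplitudes of 1.24 ± 0.10 and 1.08 ± 0.10, and came 2.11 ± 0.48 h later (adjusted p = 0.0465).

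Gldc and Urad also peaked later. Gldc, the decarboxylase of the glycine cleavage system, had 355, 233 and 313 CPM in WT at ZT12 and 85.9, 122 and 112 CPM in GRLKO, and its peak moved 5.55 ± 1.09 h later (adjusted p = 0.021). Urad, which acts in uric acid breakdown, had 23.5, 23.5 and 27.4 CPM in WT at ZT12 and 2.88, 4.96 and 1.53 CPM in GRLKO, and its peak moved 5.17 ± 1.11 h later (adjusted p = 0.0445). In daily mean, Gldc fell by 0.60 ± 0.08 and Urad fell by 1.61 ± 0.13.

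Other fitted peaks moved by several hours at small amplitudes. Chd1l, a chromatin remodeler, peaked 6.33 ± 1.16 h later, with 27, 20.6 and 21.7 CPM in WT at ZT12 and 6.22, 7.5 and 7.02 CPM in GRLKO. Ugt2b35, a glucuronosyltransferase, peaked 5.87 ± 1.15 h later, with 130, 137 and 94.4 CPM in WT at ZT12 and 344, 274 and 340 CPM in GRLKO. Smlr1 peaked 7.20 ± 1.36 h later and Dnajc12, a co-chaperone of aromatic amino acid hydroxylases, 4.73 ± 1.01 h later. For Chd1l and Dnajc12 the genotypes overlapped at every time but ZT12, and for Smlr1 at every time but ZT12 and ZT20. The share of all genes tested without overlap at ZT12 was not counted. The fitted shifts of Chd1l and Dnajc12 thus rest largely on ZT12, and a moved wave is not shown by them. Fam210b had the same amplitude in both genotypes, 0.27 ± 0.03, and a peak at 18.9 h in WT and 22.6 h in GRLKO (adjusted p = 0.00406). Cpm, which encodes carboxypeptidase M, peaked 9.15 ± 1.41 h later with a lower amplitude, 0.36 ± 0.12 after 0.70 ± 0.11, and 6030458C11Rik peaked at 18.5 h in WT and 7.6 h in GRLKO. Rpl27-ps3, a pseudogene of a ribosomal protein gene, had amplitudes of 0.15 ± 0.03 and 0.18 ± 0.03 and peaks at 11.2 h and 18.1 h.

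Among the 130 are genes whose fit rests on single mice. Tgtp1, an interferon-induced GTPase, had 220 CPM in WT ZT4 replicate 1, beside 2.32 and 3.76 CPM in the other mice of that group, and 165 CPM in GRLKO ZT20 replicate 1, beside 14.6 and 8.89 CPM. Its fitted peak moved by -6.44 ± 1.20 h (adjusted p = 0.0312). Saa1 and Saa2, acute phase proteins, had 244 and 39.5 CPM in WT ZT8 replicate 2, while the other 17 WT samples reached 36.2 and 6.32 CPM at most. Mcm6, a subunit of the replicative helicase, had 35.4, 11.1 and 14.6 CPM in GRLKO at ZT20 and between 1.66 and 5.5 CPM at that genotype's other times. Gm10241, a processed pseudogene, was at 0 in 27 of the 36 samples and reached 4.29 CPM at most, so that its fitted amplitudes cannot be read. Without 1 sample each, Saa1 and Saa2 (WT ZT8 replicate 2), and Tgtp1 and Mcm6 (GRLKO ZT20 replicate 1) were not called. Other samples ended these calls too: of the 36 fits that left out 1 sample, Saa1 was called in 8, Saa2 in 13, Mcm6 in 18 and Tgtp1 in 32.

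These mice stood apart in cell markers too. WT ZT8 replicate 2 had the highest Kupffer and myeloid sum of the 36 samples, 382.5 CPM, the highest neutrophil sum, 3.99 CPM, and the highest cholangiocyte sum in WT, 89.9 CPM. GRLKO ZT20 replicate 1 had the highest stellate sum, 490.9 CPM, the highest cholangiocyte sum, 105.4 CPM, and the highest Kupffer and myeloid sum in GRLKO, 341.0 CPM. WT ZT4 replicate 1 had 303.9 CPM for Kupffer and myeloid markers, beside 158.3 and 148.0 CPM in the other mice of its group. Without these samples, 1 at a time, 96, 112 and 84 genes were called. The part of these cells in the calls was not tested further.

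Circadian clock genes had large rhythms in both genotypes. The loop of Clock, Arntl (Bmal1) or Npas2 with the Per and Cry repressors, and its second arm with the Rev-erb receptors (Nr1d1, Nr1d2), drives a large part of the rhythms of liver cells. Of the 22 clock genes listed, 22 were tested and 1, Npas2, was called (4.55%, beside 0.997% of all genes tested), with 3 at an unadjusted p under 0.05. The median amplitude was 1.497 in WT and 1.496 in GRLKO, and the median shift was 0.41 h over the 19 genes rhythmic in both. Over all genes tested those medians were 0.28 in WT, 0.27 in GRLKO and 0.24 h.

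Npas2, which can take the place of Clock, had 5.81, 7.55 and 6.95 CPM in WT at ZT16 and 2.37, 1.83 and 1.89 CPM in GRLKO. At ZT0 it had 13.3, 8.96 and 11.6 CPM in WT and 16.1, 12.5 and 13.8 CPM in GRLKO. It thus rose later in GRLKO, by 1.43 ± 0.35 h, at amplitudes of 3.60 ± 0.26 and 3.23 ± 0.25 (adjusted p = 0.0465), and it was not called in any of the 6 fits that left out a time point.

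For the other clock genes the test gave no call, and the values are these. Arntl had 14.1, 6.27 and 10.8 CPM in WT at ZT12 and 0.461, 1.35 and 3.67 CPM in GRLKO, with amplitudes of 2.26 ± 0.32 and 2.91 ± 0.35 and peaks at 19.5 h and 20.7 h (adjusted p = 0.455). Clock had 41.9, 22.7 and 25.7 CPM in WT at ZT12 and 5.53, 6.82 and 7.15 CPM in GRLKO, with peaks at 16.9 h and 19.9 h (adjusted p = 0.463). GRLKO lay below WT without overlap at ZT12, ZT16 and ZT20 for Arntl, at ZT12 alone for Clock and at ZT16 alone for Npas2. At ZT12 Npas2 was near its trough, with 0, 0 and 0.169 CPM in WT and 0.288, 0.169 and 0.183 CPM in GRLKO. Cry1 had 55.8, 44.1 and 45.3 CPM in WT at ZT12 and 20.2, 20.1 and 22.6 CPM in GRLKO, and the groups overlapped at the other 5 times. Per1, a clock gene with GR binding sites, had 105, 82.1 and 89.6 CPM in WT at ZT12 and 39.4, 39.1 and 40.2 CPM in GRLKO. Its amplitudes were 2.002 ± 0.22 in WT and 2.15 ± 0.23 in GRLKO, with peaks at 10.4 h and 10.1 h (adjusted p of the interaction 0.951), but its daily mean fell by 1.19 ± 0.22 on the log2 scale.

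Per2 and Per3 had amplitudes of 2.12 and 2.21, and 1.93 and 2.15, in WT and GRLKO. Nr1d1 had amplitudes of 3.69 ± 0.28 in WT and 3.32 ± 0.26 in GRLKO, with peaks at 5.1 h and 5.5 h, and Nr1d2 2.06 and 1.93 with peaks at 7.3 h and 7.7 h. Dbp, an output of the clock, had 3.75 ± 0.38 and 3.80 ± 0.35 with peaks at 7.4 h and 7.9 h, and its partner Tef 1.48 and 1.51. Each of these pairs differed by less than its standard error. Hlf had amplitudes of 0.53 and 0.45, Nfil3 1.49 and 1.32, Cry2 0.63 and 0.51, Rora 0.32 and 0.23, Bhlhe40 0.94 and 1.06, Bhlhe41 1.85 and 2.23, and Ciart 3.33 and 3.10. The kinases Csnk1d and Csnk1e had amplitudes of at most 0.21 in either genotype.

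The classical GR targets were a list of 29 genes, all tested. Their daily mean was lower in GRLKO for 20 (69.0%, beside 11.7% of all genes tested) and higher for 0, and the median difference was -0.74 on the log2 scale, beside 0.00 over all genes tested. Their median amplitude was 1.24 in WT and 0.76 in GRLKO, beside 0.28 and 0.27 over all genes tested. The amplitude was lower in GRLKO for 21 of 29 (72.4%, beside 52.9% of all genes tested). It differed by more than 2 SE for 3 of the 29, all of them lower. The interaction test called 2 of the 29 (6.90%, beside 0.997% of all), Tsc22d3 and Cdkn1a, and 8 had an unadjusted p under 0.05, which 12.3% of all genes reached. Of the 29, 18 were rhythmic in both genotypes, 8 in WT alone, 1 in GRLKO alone and 2 in neither. Over all 13041 genes tested those counts were 5131, 1997, 1537 and 4376. DESeq2, which called 289 genes in all (2.22%), called 6, among them Fkbp5 and Mt1, which are named here from the list after their calls were seen.

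Lists of liver metabolism held a few called genes each. Their counts stand beside shares over all genes tested of 0.997% called, 12.3% at an unadjusted p under 0.05, and 11.7% lower and 11.1% higher in daily mean. Of 17 genes of glycolysis and glucose uptake 2 were called (11.8%), Pfkfb3 and Pfkfb2, and 9 were lower in daily mean. Of 11 glycogen genes 1 was called (9.09%). This was Ugp2, which makes UDP-glucose: it had 458, 562 and 506 CPM in WT at ZT12 and 785, 703 and 687 CPM in GRLKO, with amplitudes of 0.55 ± 0.06 and 0.78 ± 0.06. Of 32 genes of fat oxidation and ketogenesis 3 were called (9.38%), Acot4 with a higher and Acaa1b and Bdh1 with a lower amplitude in GRLKO, and 16 of the 32 were higher in daily mean in GRLKO and 3 lower.

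Acaa1b, a peroxisomal thiolase, ran from 419 to 820 CPM in WT, with a median of 565 CPM, and from 1101 to 2357 CPM in GRLKO, with a median of 1555 CPM. All 18 GRLKO samples lay above all 18 WT samples, the daily mean rose by 1.42 ± 0.07, and the fitted peak was at 3.0 h in WT and 11.8 h in GRLKO, where the rhythm did not pass the threshold (adjusted p of the interaction 0.021). Bdh1, the dehydrogenase that interconverts ketone bodies, was higher in GRLKO at all 6 times without overlap, by 0.96 ± 0.06 in daily mean, and peaked at 3.9 h in WT and 8.4 h in GRLKO (adjusted p = 0.0329). Of 34 peroxisome genes 1 was called (2.94%), Acox2, and 16 were higher in daily mean and 2 lower.

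Of 32 tested genes of xenobiotic metabolism 2 were called (6.25%). Fmo5, a monooxygenase, ran from 618 to 4555 CPM in WT, with a median of 1390 CPM and its 3 highest samples at ZT12, and from 355 to 1301 CPM in GRLKO, with a median of 702 CPM. Its amplitude fell from 1.22 ± 0.09 to 0.66 ± 0.09 (adjusted p = 0.0354). Sult1d1, a sulfotransferase, had 447, 390 and 480 CPM in WT at ZT12 and 158, 131 and 158 CPM in GRLKO, and its peak moved by -3.25 ± 0.72 h, from 12.3 h to 9.1 h. Of 27 genes of amino acid catabolism 1 was called (3.70%), Gldc, and 13 were lower in daily mean and 2 higher. Of 17 tested genes of sirtuins and NAD 1 was called (5.88%). This was Nampt, the rate-limiting enzyme of NAD salvage and a clock output, which peaked 1.62 ± 0.33 h later at amplitudes of 1.08 ± 0.06 and 1.05 ± 0.06. At ZT20 it had 72.2, 72.5 and 66.2 CPM in WT and 102, 105 and 78.5 CPM in GRLKO. Of 24 tested genes of cell cycle and growth arrest 2 were called (8.33%), Cdkn1a and Mcm6. Of 35 acute phase and complement genes 2 were called (5.71%), Saa1 and Saa2, with 14 at an unadjusted p under 0.05 and 16 lower in daily mean.

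The other 16 of the 27 lists held 0 genes called by edgeR, and 0 by limma. In the 11 lists with calls limma called fewer genes in 6: 0 clock, glycogen and acute phase genes, where edgeR called 1, 1 and 2, and 1 gene each of the GR targets, xenobiotic metabolism and the cell cycle, where edgeR called 2. The calls of Npas2, Ugp2, Saa1, Saa2, Tsc22d3, Fmo5 and Mcm6 were those lost. The number with an unadjusted p under 0.05, beside 12.3% of all genes, was 1 of 14 for gluconeogenesis, 2 of 7 for the urea cycle, 3 of 24 for insulin and FoxO signaling and 5 of 38 for autophagy. It was 6 of 24 for fat and triglyceride synthesis, 3 of 23 for cholesterol synthesis, 1 of 21 for bile acids, and 3 of 20 for the growth hormone and STAT5 axis. For heat shock and temperature it was 0 of 19, for the unfolded protein response 3 of 26, for ribosome biogenesis 4 of 36 and for the cytosolic ribosome 13 of 53. It was 3 of 47 for oxidative phosphorylation, 9 of 32 for the proteasome, 2 of 18 for one-carbon, serine and methionine genes, and 3 of 24 for immediate early and Id genes. DESeq2, which called 2.22% of all genes tested, called 1 gene in each of the lists for insulin and FoxO signaling, growth hormone, one-carbon and immediate early genes, 5 in that for the cytosolic ribosome, and 0 in the other 11. Over all 27 lists, 17 of 680 tested genes were called (2.50%).

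Some of these lists differed in level while their rhythms gave no call. All 6 urea cycle genes that differed in daily mean, of 7, were lower in GRLKO, with a list median of -0.34, and so were 11 of 23 genes of cholesterol synthesis, with a median of -0.37, and 9 of 26 of the unfolded protein response, with a median of -0.26. In each of these lists 0 genes were higher. When 12 h terms were added to the cosine, 435 of 13041 genes (3.34%) and 7 of the 23 cholesterol synthesis genes (30.4%) were called, among them Cyp51 and Fdps. This list had the largest share of the 27 in that fit, and both the list and the genes are named after their calls were seen. Next came amino acid catabolism with 5 of 27 (18.5%), the GR targets with 5 of 29 (17.2%) and the peroxisome with 5 of 34 (14.7%). Without the pancreas sample that fit called 286 of 13296 genes (2.15%) and 6 of the 23.

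The control diet gave a second view in other mice. There the rhythm differed between the genotypes for 48 of 12834 genes (0.374%), with 1252 genes (9.76%) at an unadjusted p under 0.05. Of the 48, 12 were among the 130, which is 25% of the 48 and 9.23% of the 130. They were Acot13, Arhgef37, Chd1l, Eif4ebp3, Gfra1, Nucks1, Serinc3, St3gal5, Tango2, Tcim, Tsc22d3 and Zfpm1, of which Acot13, Gfra1, Nucks1, Serinc3 and Tcim are named because they are in this overlap. Of the 130 genes, 127 were in the control-diet fit, and 53 of these (41.7%) had an unadjusted p under 0.05 there, beside 9.75% of all genes in both fits. The change from WT to GRLKO, taken as the difference of the fitted cosines, pointed to the same side of the day in both diets for 101 of the 127 (79.5%), beside 54.8% of all genes in both fits.

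Eif4ebp3 had amplitudes of 1.95 ± 0.15 in WT and 0.43 ± 0.19 in GRLKO under the control diet, and St3gal5 1.31 ± 0.08 and 0.44 ± 0.08, so that both fell there too (adjusted p of 0.00237 and 4.98e-05). For Pfkfb3 the control-diet amplitudes were 1.37 ± 0.20 in WT and 1.12 ± 0.22 in GRLKO (adjusted p = 0.94), for Tfrc 0.66 ± 0.16 and 1.24 ± 0.16 (adjusted p = 0.161), and for Acot4 0.40 ± 0.10 and 0.70 ± 0.10 (adjusted p = 0.482). Cdkn1a peaked at 21.6 h in WT and 22.5 h in GRLKO there, at amplitudes of 2.18 ± 0.16 and 2.22 ± 0.17. A test of whether the effect of genotype on the rhythm differed between the diets called 4 of 13376 genes (0.0299%). These were Gm10241, Hnrnpll, Mettl7b and Tgtp1. With a replicate block 0 genes were called, at an adjusted p of 0.0522 for the first 3 and 0.112 for Tgtp1. At a minimum count of 50 Hnrnpll alone of the 4 was called, and with replicates 1 to 3 Gm10241 alone. The diets were kept in separate tables with their own samples, so diet and table cannot be told apart.

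Of the 47 named genes that were called, 18 were called in every one of the 36 fits that left out 1 sample: 6030458C11Rik, Acaa1b, Acot4, Arhgef37, Cdkn1a, Cpm, Eif4ebp3, Fam210b, Il1r1, Mettl7b, Pfkfb3, Rpl27-ps3, Shld2, Tango2, Tfrc, Tmc7, Zfp395 and Zfpm1. At the other end, Ablim3, Gin1 and Ugp2 were called in 5 of the 36 fits, Smlr1 in 7, Acox2, Saa1 and Tsc22d3 in 8, Npas2 in 9, Mapk15 in 11 and St3gal5 in 12. These calls lie near the threshold, with adjusted p of 0.0445 or more in the full fit. Without the 3 samples with high pancreas or erythrocyte sums, 20 of the 47 were called: the 18 apart from Il1r1, Pfkfb3 and Zfp395, and Ablim3, Eva1a, Gm10241, Pfkfb2 and St3gal5. The other 27, Serpina3c among them, were not called in that fit.

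Apart from the 47 named genes, 83 of the 130 remain, 48 with a lower and 35 with a higher amplitude in GRLKO. Their median amplitude was 0.38 in WT and 0.34 in GRLKO, their median level was 27.9 CPM, and their adjusted p ran from 0.00723 to 0.04995 with a median of 0.0381.

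Short stretches of promoters are shown to let the letters be seen beside the values, for 9 of the named and called genes that hold a match before a start. The hexamer that forms 1 arm of a GR binding site, AGAACA, was searched, as was the E-box, which clock activators bind, CACGTG. The search took both strands in the 250 bases before and 50 after each gene's start in RefSeq (GRCm38.p6). Of the 27025 genes given there, 21.3% hold the hexamer and 8.09% the E-box at 1 start or more, and of the genes among them that were tested here, 15.4% and 11.4%. Since 98 of the 130 called genes (75.4%) had a promoter in the table, a comparison of shares for the 130 is void. Capitals mark the motif, and each is read on the gene's strand. The hexamer is in Serpina3c (chr12:104154025-104154074), Il1r1 (chr1:40266433-40266482), Tsc22d3 (chrX:140600680-140600729), Smlr1 (chr10:25536394-25536443), Tgtp1 (chr11:48992385-48992434) and Pfkfb2 (chr1:130714693-130714742). The E-box is in Pfkfb3 (chr2:11502116-11502165), Acot4 (chr12:84038291-84038340), Eva1a (chr6:82041535-82041584) and, before another of its starts, Pfkfb2 (chr1:130715822-130715865). RefSeq gives several starts for some genes, and the windows of Il1r1, Pfkfb3, Pfkfb2, Tgtp1 and Eva1a lie before starts inside the annotated gene, not at its outer end. A match is a description of the letters, not a binding site.
Serpina3c: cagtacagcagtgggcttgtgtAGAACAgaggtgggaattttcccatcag
Il1r1: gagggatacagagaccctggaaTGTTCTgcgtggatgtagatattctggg
Tsc22d3: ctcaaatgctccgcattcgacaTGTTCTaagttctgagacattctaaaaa
Smlr1: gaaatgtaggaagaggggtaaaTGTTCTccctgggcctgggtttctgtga
Tgtp1: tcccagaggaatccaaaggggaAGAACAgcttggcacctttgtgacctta
Pfkfb2, hexamer: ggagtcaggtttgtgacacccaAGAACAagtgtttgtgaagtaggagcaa
Pfkfb3: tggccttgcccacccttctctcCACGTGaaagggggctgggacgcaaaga
Pfkfb2, E-box: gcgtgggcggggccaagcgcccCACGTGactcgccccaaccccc
Acot4: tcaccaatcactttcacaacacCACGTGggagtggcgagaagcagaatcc
Eva1a: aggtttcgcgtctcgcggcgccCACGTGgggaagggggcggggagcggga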

How the data were processed

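RNA was measured in bulk liver from 36 mice under caloric restriction, with 42 control-diet mice in a table of their own. The deposited tables hold estimated counts per gene made by the authors. The submitters' processing notes name FastQC, MultiQC, Salmon, DESeq2 and mm10, with no versions and no annotation release. Counts were rounded, genes were filtered by filterByExpr at a minimum count of 10 within groups of genotype and time, and TMM scaling was used (R 4.3.3, edgeR 4.0.16). Symbols and positions came from an annotation of GRCm38.

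A quasi-likelihood model held genotype, the cosine and sine of 24 h time, and their interaction. The 2 interaction terms were tested together, with Benjamini-Hochberg adjustment over all genes tested and a threshold of 0.05. Amplitude and phase errors come from the delta method. The code was tested on simulated data. Within groups, the replicate numbers did not pair mice across genotypes.

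Named genes were, by a rule, Nr3c1, the core clock, called GR targets, and up to 3 called members of each other list among 27 gene lists. To these came, among called genes at 5 CPM or more, the 10 largest falls and the 10 largest rises of amplitude beyond 2 SE (no predicted genes or pseudogenes), the 8 largest phase shifts at amplitudes of at least 0.3 in both genotypes, and the 10 smallest p of all. Members, lists and this rule were chosen with earlier results of these data known. Alternatives tried were DESeq2 size factors, no filter and a stricter one (minimum count of 50), limma 3.58.1 on variance-stabilized counts, the DESeq2 1.42.0 likelihood ratio test, a replicate block, 12 h terms, time as a factor, and each sample or time left out. The remaining 12 samples of the series, WT at ZT12 from another set, were not used. Promoter windows were written for every named and called gene with a match before a start, apart from genes of chromosome 18, which were left out.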

Additional observations from a re-analysis of the deposited data

Results flagged for a closer look

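In a fit of both diets together, 4 genes had a genotype effect on the 24 h rhythm that differed between caloric restriction and the control diet by the test of that difference itself. These calls do not hold in every setting: with a replicate block 0 genes were called, at a minimum count of 50 Hnrnpll alone of the 4, with replicates 1 to 3 Gm10241 alone, and with limma Hnrnpll and Mettl7b. Hnrnpll, an RNA-binding protein, had an adjusted p of 0.0357. Under restriction its amplitude was 0.17 ± 0.04 in both genotypes with peaks at 14.7 h in WT and 6.55 h in GRLKO, and under the control diet it was 0.05 ± 0.03 in WT and 0.08 ± 0.03 in GRLKO. At ZT16 under restriction the WT samples had 31.9, 29.8 and 32.2 CPM and the GRLKO samples 25.5, 25.9 and 24.3 CPM. Mettl7b had an adjusted p of 0.042, with amplitudes of 0.29 and 0.63 in WT and GRLKO under restriction and 0.20 and 0.36 under the control diet. Tgtp1 had an adjusted p of 0.0468, and its highest samples under restriction were single mice, at 220 CPM in WT ZT4 replicate 1 and 165 CPM in GRLKO ZT20 replicate 1. Gm10241 had an adjusted p of 0.0357 and was at 0 in 27 of 36 samples under restriction and in 38 of 42 under the control diet.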

How the results depend on the processing

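The count of genes whose rhythm differed under restriction, 130, was 135 with DESeq2 size factors, 135 at a minimum count of 50, and 116 without the ZT8 samples. It was 64 with no filter, 85 with limma, 289 with the DESeq2 likelihood ratio test, 435 with 12 h terms added (125 of them among the 130) and 696 with time as a factor (112 among the 130). Replicate numbers did not pair mice, and with a replicate block it was 68. Leaving out a time gave 44 without ZT0, 35 without ZT4, 3 without ZT12, 268 without ZT16 and 18 without ZT20. Without the 3 samples with pancreas or erythrocyte markers it was 47, and with 12 h terms and without the pancreas sample 286, both chosen after the data were seen. Leaving out 1 sample gave 57 to 165. The count was beyond 1.5 times lower without any of 18 samples: WT ZT12 replicate 3 (57), 2 (61) or 1 (73), WT ZT20 replicate 3 (74) or 1 (75), WT ZT16 replicate 2 (81), WT ZT0 replicate 3 (83), WT ZT4 replicate 1 (84), GRLKO ZT4 replicate 1 (60), 2 (74) or 3 (81), GRLKO ZT12 replicate 2 (68) or 3 (68), GRLKO ZT8 replicate 2 (74), GRLKO ZT20 replicate 2 (77), and GRLKO ZT0 replicate 1 (80), 2 (80) or 3 (82). These fits hold fewer samples, and the cause of the lower counts was not tested.

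The share of called genes with a lower amplitude in GRLKO, 60.0%, was 45.5% without the ZT0 samples and 51.1% to 66.7% in the other settings. The count for daily mean, 2981, stayed within 1.5 times, from 2081 to 3827.

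For the control diet the count of 48 was 134 with the likelihood ratio test, 22 with replicates 1 to 3 alone and 32 with a replicate block. Leaving out 1 sample gave 29 to 61: 29 without WT ZT12 replicate 1, 29 without GRLKO ZT16 replicate 1, 30 without GRLKO ZT16 replicate 2, 30 without WT ZT0 replicate 2 and 30 without GRLKO ZT12 replicate 2. The count of 4 for the difference between diets was 12 with no filter, 1 at a minimum count of 50, 41 with the likelihood ratio test and 2 with replicates 1 to 3 alone. With a replicate block it was 0 by edgeR, with 1166 genes at an unadjusted p under 0.05.

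Over the named genes, 1676 of 2396 values kept direction and call, 715 kept direction alone and 5 turned. The amplitude difference of Saa1, -0.52, was 0.10 with limma, 0.68 without ZT8 and 0.41 without WT ZT8 replicate 2, and ran from -0.90 to 0.41 over single samples left out. That of Mcm6, 0.34, was -0.47 without ZT20 and -0.042 without GRLKO ZT20 replicate 1, and ran from -0.042 to 0.45. With 3 mice a time and a cosine of 1 period, sharp pulses are measured less well than smooth waves.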
